A study of Sus scrofa with 3 samples.

Results

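The integrin chain genes ITGB1, ITGB3, ITGB4, ITGB5, ITGB6, ITGA2 and ITGAV were followed through early development of the last deciduous molar. Every probe set that carried 1 of these symbols, either in the annotation table of the array or in the gene tables of the study, was taken, which gave 10 probe sets of the 23999 analysed and 7 genes of the 7181 with a symbol. The annotation table named 6 of the probe sets. The other 4, which are the ITGB4 probe set, both ITGB6 probe sets and 1 of the 3 ITGA2 probe sets, rest on the study's tables alone. The mandibular molar germs came from Wuzhishan miniature pig embryos and were taken at E40 in the cap stage, before a secondary dental lamina was present, at E50 in the bell stage, when that lamina began, and at E60 in the secretory stage. The study's methods name E50 early bell and E60 late bell instead. Germs of littermates, each with its dental lamina, were pooled, and total RNA of each pool went to 1 Affymetrix Porcine Genome Array, so each stage is 1 litter and 1 array. No genotype or treatment separated the groups. A pool holds epithelium, mesenchyme and whatever vessels, blood cells and surrounding tissue came with the germ. There is no spread between replicates, no p-value can be given, and every difference below compares 3 pools rather than 3 ages in general.

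Integrins are receptors that span the cell membrane as pairs of an alpha and a beta chain and tie the extracellular matrix to the cytoskeleton. The beta 1 chain pairs with many alpha chains, and with alpha 2 it forms a collagen and laminin receptor. The alpha v chain pairs with beta 1, beta 3, beta 5 or beta 6 in receptors for ligands with an RGD motif such as fibronectin, vitronectin and osteopontin. Alpha v beta 3 is the main integrin of osteoclasts and is also carried by vessel walls, alpha v beta 6 is epithelial and activates latent TGF beta, and beta 4, with alpha 6, anchors epithelial cells to the basement membrane in hemidesmosomes. In tooth germs such receptors lie on both sides of the basement membrane between the enamel organ and the dental mesenchyme.

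The signals of ITGB3, ITGB4 and ITGA2 differed by over 2-fold between stages, while those of ITGB1, ITGB5 and ITGAV stayed within 1.42-fold over all 3 arrays. ITGB3 was 3.05-fold lower at E50 than at E40 and 2.88-fold higher at E60 than at E50. ITGB4 was 2.22-fold higher at E60 than at E40, with E50 in between. ITGA2 was lower at E50 and at E60 than at E40, by 2.72-fold and 2.14-fold on the probe set that was measured on all arrays. ITGB6 stayed at or near the lower limit of measurement, and its probe sets gave no usable difference between E50 and E40.

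The values are signals computed with the MAS 5.0 algorithm and scaled to a common trimmed mean. The 25th percentile of an array, which was 29.3 at E40, 17.2 at E50 and 21.8 at E60, served as a floor: a dimmer signal was raised to it before any fold was formed, a fold with 1 raised signal is written "at least", and none is given where both were raised or where raising reversed the order. Of the 10 integrin probe sets, 6 lay at or above the floor on all 3 arrays, 1 on 2 arrays, 1 on 1 array and 2 on none. The median of all probe sets was 163.5 at E40, 125.0 at E50 and 132.0 at E60, so the arrays differ among dim probe sets even though their trimmed means match. Between probe sets of the same gene the log2 difference varied with an SD of 0.55 for E50 versus E40 (1596 genes), 0.41 for E60 versus E50 (1625 genes) and 0.50 for E60 versus E40 (1596 genes). Unequal probes and measurement noise both enter this spread, and the variation between litters does not.

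**Figure D1:**
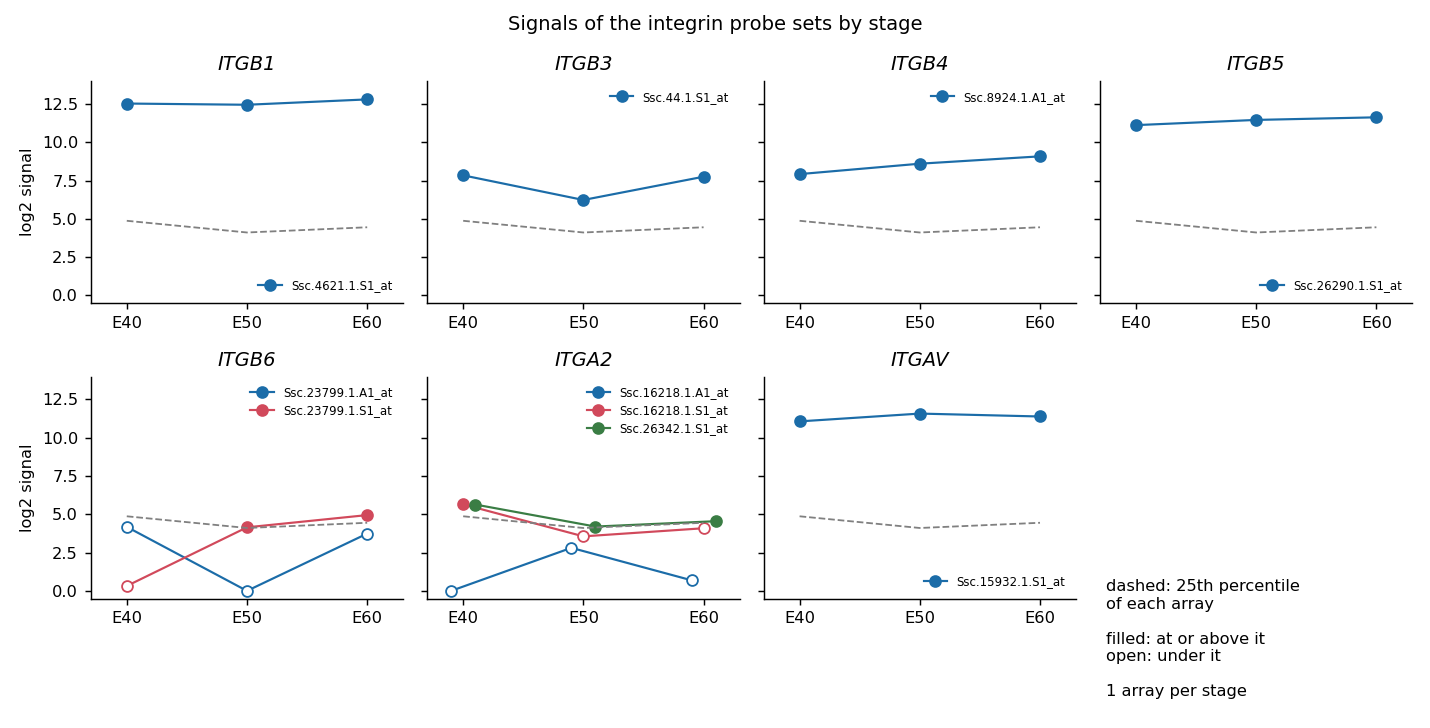
log2 signal of the 10 integrin probe sets (y axis) at E40, E50 and E60 (x axis), a panel for each gene and 1 array per stage. Filled points lie at or above the 25th percentile of their array (dashed line) and open points under it, and in the ITGA2 panel the points are set apart sideways for legibility. ITGB1, ITGB5 and ITGAV stay far above the dashed line, ITGB3 dips at E50 to a signal of 75, ITGB4 climbs to 539.5 at E60, and the ITGB6 and ITGA2 probe sets lie close to the line or under it.

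ITGB1, the common beta chain that most cells carry, had a signal of 5915.2 at E40, 5602.6 at E50 and 7140.7 at E60 (Ssc.4621.1.S1_at). The highest signal was 1.27 times the lowest, and the log2 difference was -0.08 for E50 versus E40, 0.35 for E60 versus E50 and 0.27 for E60 versus E40. All of these lie within 2-fold. The sign of the small difference between E50 and E40 depended on the scaling, being 0.31 with the arrays scaled to equal medians and -0.25 after quantile normalization.

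ITGAV, the alpha chain of the RGD receptors, had a signal of 2148.3 at E40, 3057.9 at E50 and 2686.5 at E60 (Ssc.15932.1.S1_at). It was highest at E50, where ITGB3 was lowest, and was 1.42-fold higher there than at E40. ITGB5, a partner of alpha v in a vitronectin receptor, gave 2223.0 at E40, 2820.7 at E50 and 3167.5 at E60 (Ssc.26290.1.S1_at). The order was E40, E50, E60 from low to high, with 1.42-fold between the ends. Both probe sets belonged, like that of ITGB1, to the brightest of 4 equal classes of probe sets by mean log2 signal, in which differences over 2-fold were rare in every pair of stages.

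ITGB3, the beta chain of the osteoclast receptor and, with alpha IIb, of the platelet fibrinogen receptor, had a signal of 229.2 at E40, 75 at E50 and 215.9 at E60 (Ssc.44.1.S1_at). E50 stood apart from E40 and E60, whose signals were within 1.06-fold of each other. The log2 difference was -1.61 for E50 versus E40 and 1.53 for E60 versus E50, each larger than the spread between probe sets of the same gene given above. All 3 signals lay above the floor, so neither fold is a bound. With the floor at the 50th percentile the E50 signal had to be raised, and the bounds of -0.87 and 0.79 lay within 2-fold. The difference of -0.09 between E60 and E40 took the other sign, 0.22 and 0.15, under equal medians and quantile normalization. In a bulk sample such as these pools, fewer cells that carry a chain and less of its RNA per cell cannot be told apart.

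ITGB4, the hemidesmosomal beta chain of epithelium, had a signal of 242.8 at E40, 388.0 at E50 and 539.5 at E60 (Ssc.8924.1.A1_at). The 3 signals followed the order of the stages. E50 was 1.60-fold above E40 and E60 was 1.39-fold above E50, each within 2-fold, and the log2 difference between the ends was 1.15. The gene has this probe set only, it is named by the study's tables alone, and no second probe set was at hand to check it. Its name carries A1 in place of S1, whose meaning is not given in the sources used here, and with A1 probe sets left out no higher integrin probe set is left for E60 versus E40. Under equal medians the difference between E50 and E40 also passed 2-fold, at 1.06 on the log2 scale.

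ITGB6, the epithelial partner of alpha v, was represented by Ssc.23799.1.A1_at and Ssc.23799.1.S1_at. The first had signals of 18.1 at E40, 1.0 at E50 and 13.4 at E60, all under the floor. The second had 1.2 at E40, under the floor, 17.7 at E50, just above it, and 30.9 at E60. Without the floor the probe sets went opposite ways between E40 and E50, with log2 differences of -4.18 and 3.83, and each of these rests on at least 1 signal under the floor. What could be measured was that the second was 1.74-fold higher at E60 than at E50, and at least 1.05-fold higher at E60 than at E40. No value over 2-fold came from ITGB6.

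ITGA2, the alpha chain of the collagen receptor, had 3 probe sets. On Ssc.26342.1.S1_at the signal was 50 at E40, 18.4 at E50 and 23.4 at E60, all above the floor but close to it at E50 and E60. On Ssc.16218.1.S1_at it was 50.3 at E40, and 11.8 at E50 and 17.1 at E60, both under the floor. These probe sets, named by different sources, had E40 above E50 and E60 alike. The second was at least 2.92-fold lower at E50 than at E40 and at least 2.31-fold lower at E60 than at E40. On Ssc.16218.1.A1_at all signals lay under the floor, with 1.0 at E40, 7.0 at E50 and 1.6 at E60, and no fold was formed. For E60 versus E50 the measured ITGA2 probe set was 1.27-fold higher at E60. The dim level limits these folds: with a common floor of 29.3 on all arrays the log2 differences between E50 and E40 were -0.77 and -0.78, within 2-fold, for the 2 probe sets measured at E40.

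For E50 versus E40, 3 integrin probe sets were lower by over 2-fold, 1 of ITGB3 and 2 of ITGA2, and 0 were higher, among the 8 with at least 1 signal at or above the floor. Of all 19132 probe sets measured in this pair, 15% were lower and 2.49% higher. The lower share depended steeply on brightness, from 37.2% in the dimmest class and 28.5% in the second dimmest, where both ITGA2 probe sets lie, to 9.33% in the second brightest, where ITGB3 and ITGB4 lie, and 2.7% in the brightest. A signal over 2-fold lower, as for ITGA2, was thus common among probe sets of its brightness, and less so among those as bright as ITGB3.

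For E60 versus E50, 1 of 7 measured integrin probe sets was higher by over 2-fold, that of ITGB3, and 0 were lower. Over all 18979 probe sets 6.24% were higher and 1.84% lower, and in the class of ITGB3 4.47% were higher. For E60 versus E40, 1 of 8 was higher, that of ITGB4, and 2 were lower, both of ITGA2. Over all 19110 probe sets 4.4% were higher and 12.3% lower, with 4.95% higher in the class of ITGB4 and 23% lower in that of ITGA2. Among integrin probe sets at or above the floor in both stages, the median log2 difference was 0.13 for E50 versus E40 (6 probe sets), 0.35 for E60 versus E50 (7 probe sets) and 0.30 for E60 versus E40 (6 probe sets), beside -0.11, 0.02 and -0.11 over all probe sets. The pairs share arrays, so ITGB3 at E50 enters both of its calls.

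**Figure D2:**
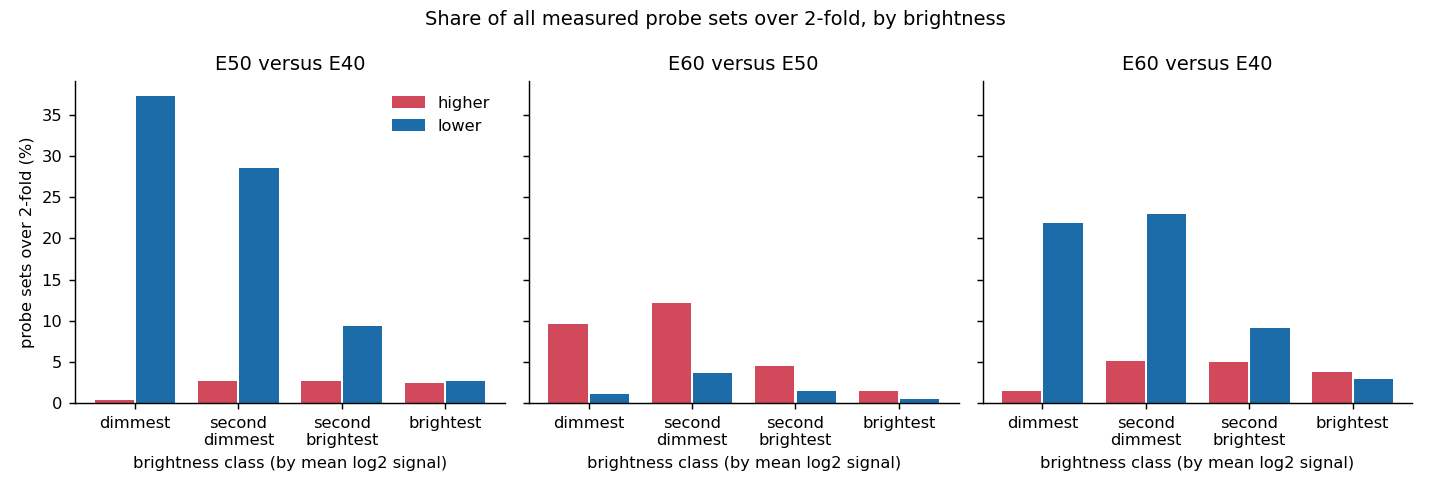
Percentage of all measured probe sets that were over 2-fold higher (red) or lower (blue) in each pair of stages (y axis), by class of mean log2 signal from dim to bright (x axis). For E50 versus E40 the lower share is 28.5% in the class that holds ITGA2, 9.33% in that of ITGB3 and ITGB4, and 2.7% in that of ITGB1, ITGB5 and ITGAV.

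Other scalings shifted whole arrays. The median log2 difference of all probe sets without a floor was -0.15 for E50 versus E40 as deposited and 0.24 with equal medians. The 2 calls of ITGB3 held under each scaling tried, with -1.22 and 1.45 under equal medians, -1.20 and 1.35 after quantile normalization, and -1.73 and 1.65 with scaling to housekeeping genes, for E50 versus E40 and E60 versus E50 in turn. The call of ITGB4 for E60 versus E40 held as well, at 1.46, 1.36 and 1.16. The calls of ITGA2 did not. For E60 versus E40 both probe sets were within 2-fold under equal medians (-0.79 and -0.90) and quantile normalization (-0.70 and -0.81), and for E50 versus E40 under quantile normalization (-0.72 and -0.81).

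**Figure D3:**
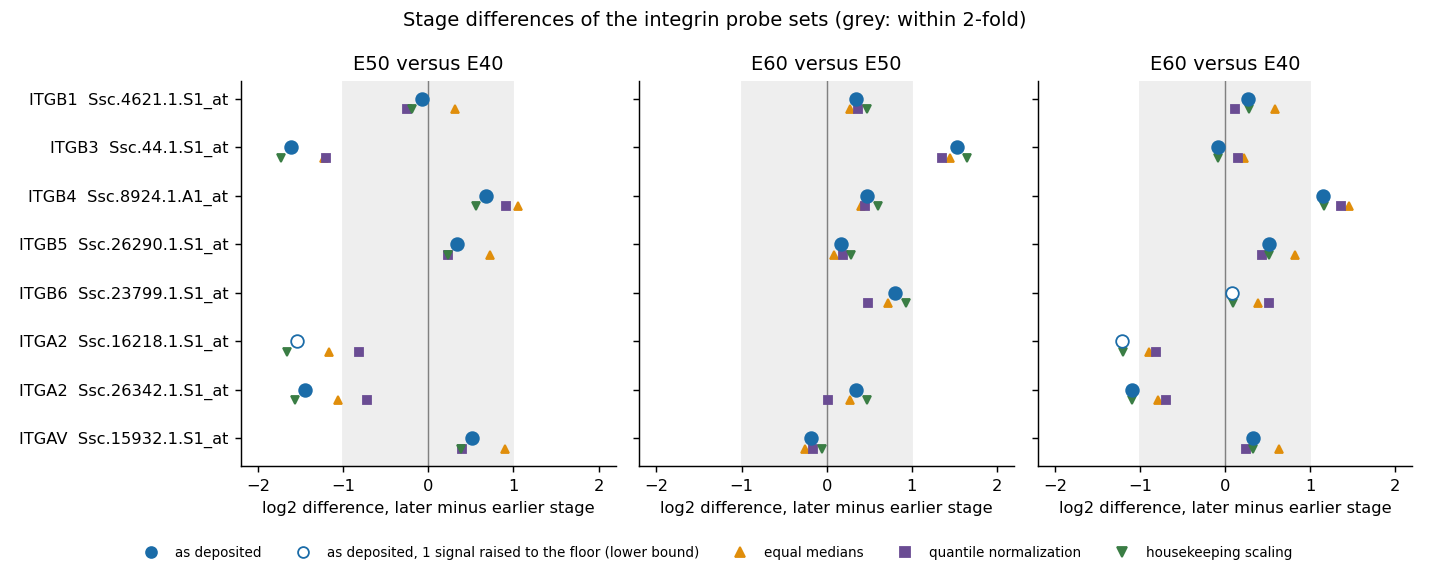
log2 difference, later minus earlier stage (x axis), of the 8 integrin probe sets with a fold in at least 1 pair of stages, a panel for each pair, with the grey band within 2-fold. Circles show the deposited values, open where 1 signal was raised to the floor, and the small symbols below each circle show 3 other scalings. ITGB3 stays outside the band at -1.61 and 1.53, ITGB4 at 1.15, and the ITGA2 points cross into it under some scalings.

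Differences between genes within the same arrays do not depend on a factor applied to a whole array. They can depend on a scaling that treats dim and bright probe sets differently. Relative to its partner ITGAV, ITGB3 was 4.35-fold lower at E50 than at E40 and 3.28-fold higher at E60 than at E50. Relative to ITGB5, the alternative beta chain of alpha v, these contrasts were 3.88-fold and 2.56-fold. All of them were smaller after quantile normalization. ITGB3 then had log2 differences of -1.20 and 1.35 in these pairs, against 0.40 and -0.16 for ITGAV and 0.23 and 0.19 for ITGB5. The beta 3 and beta 5 genes, whose products share alpha v, thus parted at E50. ITGB5 and ITGAV differed from each other by 1.28-fold at most in these pairs. ITGA2 was 2.58-fold lower relative to its partner ITGB1 for E50 versus E40 and 2.59-fold lower for E60 versus E40. The pair moved by 1.0-fold for E60 versus E50. These contrasts set a dim probe set against a bright one and shrank after quantile normalization. The log2 differences of ITGA2 and ITGB1 were then -0.72 and -0.25 for E50 versus E40, and -0.70 and 0.12 for E60 versus E40. As deposited they were -1.45 and -0.08, and -1.10 and 0.27. ITGB1 and ITGAV differed by about 1.5-fold at most.

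Of the other 19 integrin chains looked for, 7 had a named probe set, and each gene outside the 7 chains is given by its brightest one. Among the alpha chains ITGA8, which pairs with beta 1 and binds nephronectin and fibronectin, had signals of 73.2 at E40, 110.7 at E50 and 184.0 at E60. It was 2.51-fold higher at E60 than at E40, the only call in either list of other chains, and its other 2 probe sets had the same order (63.3, 80.4 and 164.7 at E40, E50 and E60, and 29.6, 66.5 and 117.0). The remaining chains are named because so few were measured. ITGA5, the alpha chain of the fibronectin receptor, had 147.8 at E40, 75.2 at E50 and 117.6 at E60, 1.96-fold lower at E50 than at E40 and so just within 2-fold. ITGA2B, the platelet partner of beta 3, had 84.1 at E40, 52.2 at E50 and 54.7 at E60. It did not share the high E60 signal of ITGB3. ITGB2, the beta chain of leukocytes, had 50.6 at E40, 45.1 at E50 and 56.7 at E60, within 1.26-fold. ITGB7 and ITGAM lay under the floor on 2 arrays each. ITGA6, the partner of beta 4, was under the floor on all 3 arrays, at 1.5 at E40, 1.8 at E50 and 9.6 at E60, so the alpha side of the hemidesmosome receptor was not measured here.

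Of 27 matrix ligands and ligands activated by integrins, 17 had a named probe set. For E50 versus E40, 6 were lower by over 2-fold and 1 higher. Between E50 and E60 there were 4 higher at E60 and 0 lower, and for E60 versus E40 the counts were 2 and 2. Over all probe sets the lower and higher shares were 15% and 2.49% in the first pair, 1.84% and 6.24% in the second and 12.3% and 4.4% in the third. Their median log2 difference was -0.55, 0.35 and -0.16 in these pairs, and with equal medians -0.16, 0.28 and 0.15. Counts and medians take the brightest probe set of each gene, and further probe sets of COL1A2, THBS1 and FN1 that differed from it are given below. The laminin gene LAMC1 was within 2-fold on its brightest probe set (4076.7 at E40, 2783.4 at E50 and 2949.5 at E60). A dimmer LAMC1 probe set had 62.6, 82.0 and 219.3, with log2 differences of 1.42 for E60 versus E50 and 1.81 for E60 versus E40. IBSP, the bone sialoprotein that alpha v beta 3 binds, had the largest of these differences for E50 versus E40. Its signals were 4046.8 at E40, 617.4 at E50 and 4584.5 at E60, 6.55-fold lower at E50 than at E40 and 7.43-fold higher at E60 than at E50. As with ITGB3, E50 stood below both other stages, but the IBSP contrast was larger, by 2.15-fold for E50 versus E40 and 2.58-fold for E60 versus E50.

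COL1A2, a chain of type I collagen, had the same low E50 signal, with 470.4 at E40, 205.6 at E50 and 472.7 at E60. Its dimmer probe set, with 130.3 at E40, 1.3 under the floor at E50 and 48.8 at E60, was also lowest at E50. On that probe set E60 did not return to the E40 level, with a log2 difference of -1.42. COL3A1, of type III collagen, was 2.29-fold higher at E60 than at E50. POSTN, the matrix protein periostin, was 2.89-fold lower at E50 than at E40, with 7621.1 at E40, 2641.4 at E50 and 4668.4 at E60. TNC, the matrix glycoprotein tenascin C, had 1057.0 at E40, 364.8 at E50 and 455.4 at E60. Its signals were lower by 2.90-fold at E50 and 2.32-fold at E60 than at E40, the same order as those of ITGA2. THBS1, thrombospondin 1, was likewise lower, by 2.08-fold at E50 and 2.12-fold at E60, but its second probe set (192.5 at E40, 212.7 at E50 and 109.9 at E60) was within 2-fold in every pair.

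TGFB1, whose latent form alpha v beta 6 activates, went the other way, with 263.3 at E40, 596.1 at E50 and 1826.5 at E60. It was 6.94-fold higher at E60 than at E40, while its epithelial activator ITGB6 could not be followed. The best known ligands of the alpha v receptors were named after their values had been seen. FN1, fibronectin, had 9747.2 at E40, 6145.8 at E50 and 8740.8 at E60, and SPP1, osteopontin, had 6186.0, 4538.5 and 5663.5 at E40, E50 and E60, both within 2-fold on these probe sets. A dimmer FN1 probe set had 799.0 at E40, 79.9 at E50 and 251.1 at E60, with log2 differences of -3.32 for E50 versus E40 and 1.65 for E60 versus E50, so the probe sets of FN1 share the lower E50 signal but not its size. VTN, vitronectin, was dim, at 28.1 under the floor at E40, 37.1 at E50 and 59.4 at E60, which is at least 2.03-fold higher at E60 than at E40.

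Of 33 gene symbols looked for as partners inside the cell or, for CD47, in its membrane, 14 had a named probe set. By their brightest probe sets 13 stayed within 2-fold in all 3 pairs. The count lower for E50 versus E40 was 1 of 14, beside 15% over all probe sets. That share was 2.7% in the brightest class and 28.5% in the second dimmest, and the called gene was dim. Their median log2 difference was 0.03 for E50 versus E40, 0.06 for E60 versus E50 and 0.04 for E60 versus E40. TLN1, talin, which binds beta tails and activates integrins, had 1139.6 at E40, 1265.7 at E50 and 1416.1 at E60. VCL, vinculin, which joins talin to actin, had 5637.1, 5686.4 and 4779.5 at E40, E50 and E60. These 2 genes were also named after their values had been seen. Dimmer probe sets of 2 partners went elsewhere. That of RACK1, a scaffold protein, had 488.8 at E40, 29.9 at E50 and 8.1 under the floor at E60, against 21851.5, 21544.1 and 19336.5 on its brightest, and 1 of CD47, an integrin-associated membrane protein, had 193.7 at E40, 397.2 at E50 and 440.8 at E60. The gene over 2-fold on its brightest probe set was ITGB1BP2, melusin, a beta 1 binding protein of striated muscle, with 104.7 at E40, 8.5 under the floor at E50 and 22.4 at E60. It was at least 6.08-fold lower at E50 and 4.67-fold lower at E60 than at E40, alongside the skeletal muscle genes described below.

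Among the hemidesmosomal genes, CD151, the tetraspanin that binds laminin receptors, followed the order of ITGB4. Its signals were 1268.2 at E40, 1877.2 at E50 and 3420.2 at E60, 2.70-fold higher at E60 than at E40. COL17A1, the collagen XVII of hemidesmosomes, did not. It had 54.7 at E40, 15.6 under the floor at E50 and 66.3 at E60, at least 3.18-fold lower at E50 than at E40 and at least 3.85-fold higher at E60 than at E50. Its dimmer probe set, with 34.4 at E40, 21.2 at E50 and 24.7 at E60, was within 2-fold throughout. DST, which encodes the plaque protein BPAG1, had 1785.6 at E40, 1016.0 at E50 and 1405.6 at E60, also within 2-fold. A dimmer DST probe set had 39.8 at E40, 20.1 at E50 and 11.4 under the floor at E60, and so was not clearly lowest at E50. Of the 8 hemidesmosome genes 4 were named and 3 measured. ITGB4 and CD151 thus stood beside COL17A1 and DST, which were lowest at E50 on their brightest probe sets.

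The labelled tissue was checked against marker lists, whose counts are to be read beside the shares over all probe sets given above. The epithelial markers KRT8, DSP and KRT19 and the mesenchymal markers VIM, LUM and DCN were bright on all 3 arrays. The summed signal of 8 mesenchymal markers, carried by these 3, was 47827.7 at E40, 46041.3 at E50 and 50217.5 at E60, while their median log2 difference was -0.48 for E50 versus E40, with 2 lower, and 0.29 for E60 versus E50, with 2 higher. Of 5 ameloblast genes 4 were higher at E60 than at E40, led by AMBN, ameloblastin, with 59.8 at E40, 2675.2 at E50 and 29942.0 at E60, AMELX, amelogenin, and MMP20, enamelysin. The other, KLK4, the enamel protease, had 75.1 at E40 and lay under the floor at E50 and E60. The E40 pool differed from the others in 2 further tissues. Of 12 skeletal muscle markers, 12 were lower by over 2-fold at E50 and 12 at E60 than at E40, with a summed signal of 36981.9 at E40, 787.4 at E50 and 3532.6 at E60. The brightest of them were the myosin light chain genes MYL1, with 7116.4, 481.2 and 3266.3 at E40, E50 and E60, MYLPF and MYL2. Of 4 measured markers of keratinised epithelium 3 were lower in each of these pairs, namely IVL, CST6, with 1783.0 at E40, 109.1 at E50 and 32.4 at E60, and SPRP, with 4321.1 at E40, 45.3 at E50 and 51.7 at E60.

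The summed signal of 7 epithelial markers was 29289.8 at E40, 32508.2 at E50 and 30568.7 at E60, with a median log2 difference of 0.20 for E60 versus E40, while ITGB4 was 2.22-fold higher in that pair. Relative to the brighter KRT8 probe set, ITGB4 was 1.06-fold higher for E50 versus E40 and 1.38-fold higher for E60 versus E50. CDH1 and EPCAM were added after their values had been seen. Relative to CDH1, the epithelial cadherin, ITGB4 was 2.0-fold higher at E60 than at E40, and relative to EPCAM 1.94-fold. Relative to CD151 it was 1.21-fold lower. The epithelial markers went both ways for E60 versus E40. KRT8, KRT18, KRT19, CDH1 and EPCAM were higher on their brightest probe sets. DSP and SFN were lower, with log2 differences of -0.62 and -0.58. A dimmer DSP probe set had 61.3 at E40 and lay under the floor at E50 and E60. The dimmer KRT8 probe set (199.8 at E40, 127.9 at E50 and 120.4 at E60) went the other way from the brighter one. By brightest probe sets KRT18, a partner keratin of KRT8, was the only one of the 7 markers over 2-fold in this pair. It was 2.68-fold higher at E60 than at E40, more than ITGB4. The part of the epithelial share in the ITGB4 difference was not tested.

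The osteoclast markers were split at E50. Of the 7 named of 12, CTSK, ACP5 and NFATC1 were higher at E50 than at E40 and 4 were lower, with a median log2 difference of -0.54 for E50 versus E40 and 0.04 for E60 versus E50. CTSK, cathepsin K, had 1988.2 at E40, 2164.3 at E50 and 2008.5 at E60, and ACP5, the tartrate-resistant acid phosphatase, had 411.2, 493.0 and 459.1. Relative to CTSK, ITGB3 was 3.33-fold lower at E50 than at E40 and 3.1-fold higher at E60 than at E50. NFATC1, the master transcription factor of osteoclasts, was 2.4-fold higher at E50 than at E40. TCIRG1, a proton pump subunit, had 100.3 at E40, 69.0 at E50 and 78.6 at E60 on its brightest probe set, which puts it among the lower markers. Its second probe set, also above the floor, went another way, with 88.1 at E40, 96.7 at E50 and 33.7 at E60. The dim markers MMP9, CALCR and ATP6V0D2 lay under the floor at E50 and were at least 1.75-fold, 1.90-fold and 1.72-fold lower there than at E40, and a second CALCR probe set had 54.8 at E40 and was under the floor at E50 and E60. MMP9 had 30.2 at E40, 12.3 at E50 and 34.0 at E60, lowest at E50 as ITGB3 was. The summed signal of the list, most of it CTSK, was 2664.4 at E40, 2933.7 at E50 and 2722.4 at E60. How many osteoclasts each pool held was not measured.

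Of 7 measured vessel markers 3 were lower by over 2-fold for E50 versus E40 and 1 was higher for E60 versus E50, with a median log2 difference of -0.99 and 0.38. Over all probe sets 15% were lower in the first of these pairs and 6.24% higher in the second. PECAM1, an adhesion molecule of endothelium, had 1047.6 at E40, 529.3 at E50 and 902.5 at E60, and CDH5, the endothelial cadherin, had 1070.5, 502.4 and 788.1. CLDN5, a tight junction claudin and the third brightest, had 339.4 at E40, 328.9 at E50 and 417.2 at E60, and so was not lower at E50 by more than 1.03-fold. The other calls were named after their values had been seen. TIE1, a receptor kinase, had 206.2 at E40, 77.2 at E50 and 100.4 at E60 and stayed low. TEK, the angiopoietin receptor, had 210.0 at E40, 81.7 at E50 and 226.6 at E60, 2.57-fold lower at E50 than at E40 and 2.77-fold higher at E60 than at E50. Of 9 endothelial markers 8 were named, and their summed signal was 3226.7 at E40, 1787.7 at E50 and 2771.5 at E60. KDR, the VEGF receptor, lay under the floor on all arrays. Relative to PECAM1, ITGB3 was 1.54-fold lower at E50 than at E40 and 1.69-fold higher at E60 than at E50. The part of the vessels in the ITGB3 difference was not tested.

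Blood cells offered less to compare. The platelet genes GP9 and SELP had 116.4 and 68.6 at E40, 94.6 and 41.2 at E50, and 125.1 and 64.9 at E60. With ITGA2B they were the 3 measured platelet markers, all lowest at E50 as ITGB3 was. None was over 2-fold different in any pair. Their median log2 difference was -0.69 for E50 versus E40 and 0.40 for E60 versus E50, beside -0.11 and 0.02 over all probe sets. PPBP, a platelet chemokine, was under the floor throughout. The summed signal of 3 named macrophage markers was 463.0 at E40, 546.2 at E50 and 750.8 at E60, most of it AIF1 with 309.7, 447.3 and 609.0. CD163, a scavenger receptor of macrophages, was lowest at E50 as ITGB3 was, with 138.5 at E40, 75.4 at E50 and 108.5 at E60, within 2-fold. CD14 was under the floor at E40, with 23.6 at E50 and 33.2 at E60.

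On the probe sets measured at E40, ITGA2 was dim there but higher than at E50 and E60. The summed signals of the muscle and keratinised epithelium markers were also highest at E40. Relative to CDH1, ITGA2 was 2.90-fold lower at E50 than at E40. It was thus not matched by that epithelial gene, whose signal was within 1.11-fold on all arrays. The differences of the marker genes were far larger, with MYLPF, a myosin light chain of fast muscle, at 60.9 at E50, against 8765.9 at E40, and CST6, the cystatin of cornifying epithelium, 16.3-fold lower. KRT10, a keratin of that epithelium and the other measured marker of its list, was not lower, with 1320.7 at E40, 1713.5 at E50 and 2275.5 at E60. The part of these tissues in the ITGA2 difference was not tested.

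**Figure D4:**
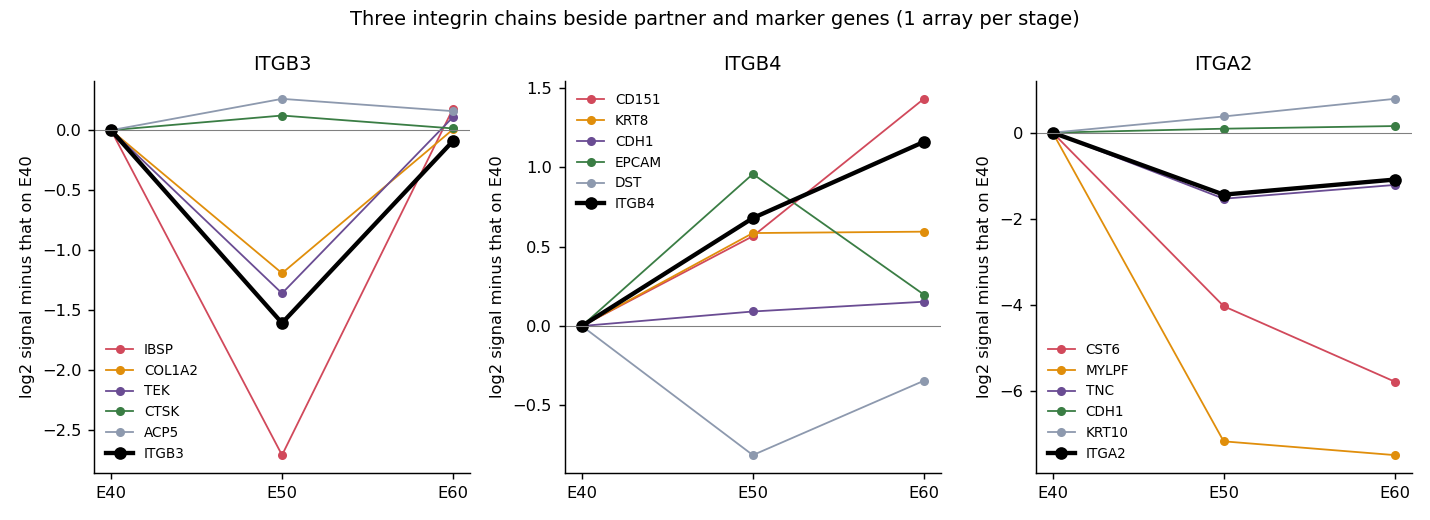
log2 signal minus that at E40 (y axis, with its own range in each panel) at E40, E50 and E60 (x axis) for ITGB3, ITGB4 and ITGA2 (black) beside genes of the ligand, hemidesmosome and marker lists that were chosen after their values had been seen, 1 array per stage. ITGB3 dips at E50 with IBSP, COL1A2 and TEK but not with CTSK and ACP5, ITGB4 climbs with CD151, and ITGA2 runs beside TNC, well above the much steeper CST6 and MYLPF.

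Likeness to each of the 3 integrin genes was measured as the Euclidean distance between log2 signals over the 3 arrays, after the mean of each probe set was taken off, among 7807 named probe sets above the floor on all arrays. With 3 points per gene many genes lie close to any pattern, so the nearest ones only describe its shape. Nearest to ITGB3 were PIK3CG, a catalytic subunit of phosphoinositide 3-kinase, at a distance of 0.015 (53.8 at E40, 17.5 at E50 and 49.9 at E60), and CORO1A, an actin-binding coronin of blood cells, at 0.018 (124.3, 40 and 115.6). Nearest to ITGB4 were CDC42SE2, an effector of CDC42, at 0.012 (1074.9, 1698.7 and 2363.6), and ADK, adenosine kinase, at 0.022 (72.9, 113.9 and 160.0). Nearest to ITGA2 were FZD4, a Wnt receptor, at 0.028 (948.8, 345.6 and 451.1), and SEPT8, a septin, at 0.029 (329.0, 124.0 and 157.3).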

How the data were processed

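The authors scanned 3 porcine arrays with Command Console 3.1, normalized them with the MAS 5.0 algorithm in GeneSpring 11.0 and deposited log2 signals for 24123 probe sets. These log2 values were used as deposited, without 124 array controls. Their antilog means, with 2% trimmed at each end, were checked to be equal on the 3 arrays. Detection calls were not used here, and the genome build is not given in the sources used here. Symbols came from the platform table (10069 probe sets with 1 symbol, 198 with several, 13732 with none) and, for the integrin chains, from the study's gene tables.

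Signals under the 25th percentile of their array were raised to it, and over 2-fold counted as higher or lower. With 1 array per stage there is no test and no replicate error, and the number of arrays limits the precision. Named were every integrin probe set, at most 4 genes over 2-fold per pathway list and pair, the 3 brightest of each marker list, and the 2 nearest patterns of each integrin over 2-fold. Further genes are said to have been chosen after their values were seen, are markers near the floor or opposed to their list, or have probe sets that went different ways. The chains and lists were chosen with earlier results of these data known. Other floors, scalings, thresholds and probe set choices were tried. Scripts ran in Python 3.11.15 with pandas 2.3.3 and numpy 2.4.6. Only the rule for folds and calls and the quantile normalization were tested on simulated data, with changes placed outside the dimmest probe sets.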

Additional observations from a re-analysis of the deposited data

How the results depend on the processing

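The counts of integrin probe sets over 2-fold were 3 for E50 versus E40, 1 for E60 versus E50 and 3 for E60 versus E40. Without a floor they were 6 (2 higher, 4 lower), 3 (2 higher, 1 lower) and 4, the additions coming from ITGB6 and ITGA2 signals under the floor. A floor at the 50th percentile gave 0, 0 and 1, and a 3-fold threshold 1, 0 and 0, as their construction implies. A common floor gave 1 for E50 versus E40 and 1 for E60 versus E40, quantile normalization the same counts, and equal medians 4 and 1. The 1 left for E50 versus E40 was ITGB3 under both settings, and the 1 for E60 versus E40 was ITGB4 under all of them. The cause was not tested. With platform names alone ITGB4 and 1 ITGA2 probe set drop out, which leaves 1 for E60 versus E40. Without A1 probe sets 2 are left there, both ITGA2. Housekeeping scaling gave 3, 1 and 3. Of the single integrin differences under other floors and scalings 116 stayed within 1.5-fold of their value, which can still cross the 2-fold limit or 0, and 8 moved further, and of the list medians 81 stayed and 5 moved. No called difference took the other sign. No paired analysis was possible because each stage has 1 array, and for the same reason no array could be left out. Signals near the floor, those of ITGB6 and ITGA2, are limited by their dimness.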
